A study of Mus musculus with 12 samples.

Results

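Collagen genes were taken as every row of the deposited mouse count table whose symbol has the form Col, a number, the letter a and a number, which gave 44 genes of 53599. Collagens are extracellular proteins built as triple helices of 3 alpha chains, and each of these genes encodes 1 chain. Type IV collagen forms the sheet-like network of basement membranes, types I, III, V, XI and XXVII form fibrils, type VI forms beaded filaments, and the FACIT collagens bind to fibril surfaces. In liver, fibrillar collagens are known as products of stellate cells and portal fibroblasts, while epithelial cells also make basement membrane chains. A chain is hydroxylated and folded in the endoplasmic reticulum, secreted, trimmed, crosslinked by lysyl oxidases and read by integrins and discoidin domain receptors.

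RNA-seq was measured in 12 mouse liver cell libraries in 4 groups of 3. The hepCLiP cells came from hepatocytes and the bilCLiP cells from biliary epithelial cells, per the labels. Every group was kept in small hepatocyte medium (SHM) with YAC, a mixture of the small molecules Y-27632, A83-01 (which blocks TGF-beta type I receptors) and CHIR99021 (which blocks GSK3). The 3D groups, hepCLiP 3D and bilCLiP 3D, were spheroids formed in Aggrewell400 plates for 3 days without fetal bovine serum (FBS) and then given 10 ng/ml oncostatin M, an interleukin 6 family cytokine, over 6 to 8 days in suspension. The 2D groups, hepCLiP 2D and bilCLiP 2D, grew on plates coated with collagen, with 10% FBS. Geometry, coated collagen, FBS at the spheroid step, oncostatin M and time therefore differ together between 3D and 2D and cannot be told apart. The reporter genotype was RosaYFP in all bilCLiP libraries and in hepCLiP replicate 2, and RosaConfetti in hepCLiP replicates 1 and 3, so that origin and reporter overlap in part. By reporter, hepCLiP replicate 2 cannot share a source animal with hepCLiP replicates 1 and 3. The labels do not otherwise say whether replicates came from separate animals or cultures. The tests therefore take in the spread between these libraries and no other, which may be technical in part.

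Titles decided the groups, since 4 treatment tags go against them. Those of the bilCLiP 3D libraries read 2D, and that of hepCLiP 2D replicate 3 reads 3D. In log2 CPM (reads scaled to a common library size) across genes, hepCLiP 2D replicate 3 correlated with the other hepCLiP 2D libraries at 0.944 to 0.953 and with the hepCLiP 3D libraries at 0.814 to 0.852. The bilCLiP 3D libraries correlated with the hepCLiP 3D libraries at 0.923 to 0.953 and with the bilCLiP 2D libraries at 0.751 to 0.860. Total counts were 16142365 to 21253382 per library. Of 7 hepatocyte markers, all had a group mean of at least 1 CPM in both 3D groups, and their summed level was 41604 to 51890 CPM in hepCLiP 3D against 342 to 1611 CPM in hepCLiP 2D, and 17402 to 43959 CPM in bilCLiP 3D against 180 to 1043 CPM in bilCLiP 2D. All 6 biliary markers passed 1 CPM in every group.

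The collagen RNA of these cells was mostly basement membrane and network collagen, and its makeup differed between the cultures. Summed over the 44 genes, collagen came to 1478 ± 305 CPM in hepCLiP 3D and 2540 ± 318 CPM in hepCLiP 2D, and to 1320 ± 142 CPM in bilCLiP 3D and 3103 ± 956 CPM in bilCLiP 2D (SD, n = 3 each). Basement membrane and network collagens held 82.7% of it in hepCLiP 3D, 91.6% in hepCLiP 2D, 87.9% in bilCLiP 3D and 92.1% in bilCLiP 2D. Within that class, Col18a1 alone held 66.1% ± 2.46 of the collagen CPM in hepCLiP 3D against 36.3% ± 16.1 in hepCLiP 2D (SD, n = 3 each). In bilCLiP it held 61.4% ± 8.43 in 3D libraries and 19.4% ± 6.60 in 2D libraries. Col4a1 held 7.63% ± 2.42 in hepCLiP 3D against 32.0% ± 11.1 in hepCLiP 2D, and in bilCLiP 14.2% ± 3.11 in 3D libraries and 45.7% ± 3.82 in 2D libraries. Col18a1 was the largest single share in all 6 of the 3D libraries, and Col4a1 in hepCLiP 2D replicate 3 and the 3 bilCLiP 2D libraries.

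**Figure D1:**
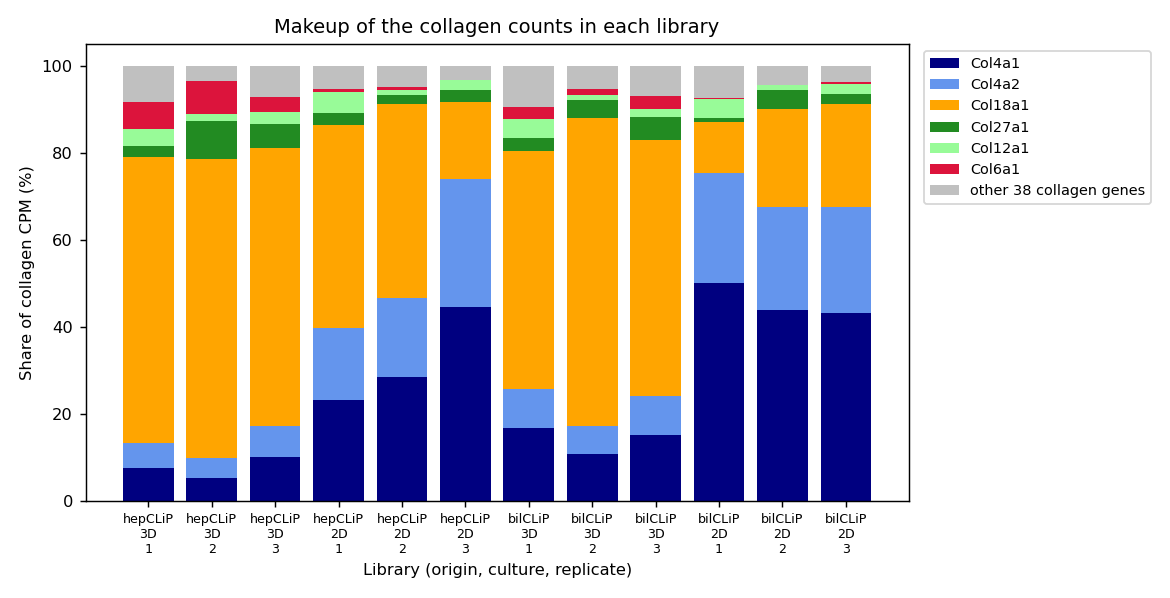
Share of the summed collagen CPM (percent, vertical axis) taken by 6 named collagen genes and by the other 38 in each library (horizontal axis, by origin, culture and replicate). Col18a1 holds on average 66.1% in hepCLiP 3D and 61.4% in bilCLiP 3D, and Col4a1 and Col4a2 take the larger part of each bilCLiP 2D bar.

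Of the 44 genes, 18 passed the filter on low counts and were tested among 14798 genes. The other 26 reached at most 73 counts (3.14 CPM) in any library, and 22 of them stayed under 10 counts in every library. In hepCLiP, 3 collagen genes were called higher in 3D (Col6a1, Col5a3 and Col6a6) and 3 lower (Col4a1, Col4a2 and Col16a1), which is 33.3% of the 18 tested, where 34.7% of all genes tested were called (16.9% higher and 17.9% lower). Of these, Col6a6 passed the filter only through 3D libraries, where it is high. For bilCLiP, Col6a1 and Col5a3 were called higher and Col4a1 and Col4a2 lower, 22.2% of the 18 tested, where 30.3% of all genes tested were called (15.8% higher and 14.5% lower). The share of collagen genes called was thus near the background in hepCLiP and not far from it in bilCLiP. On 18 genes it is no result about the family. The median log2 fold change of the 18 was 0.00 in hepCLiP and 0.02 in bilCLiP, against -0.06 and -0.00 over all genes tested. With the replicate number as a block, 9 of 18 were called in hepCLiP, against 47.1% of all genes tested, and 9 of 18 in bilCLiP, against 43.1%. DESeq2 called 6 of 18 in each origin, against 39.6% of all genes tested in hepCLiP and 35.8% in bilCLiP.

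**Figure D2:**
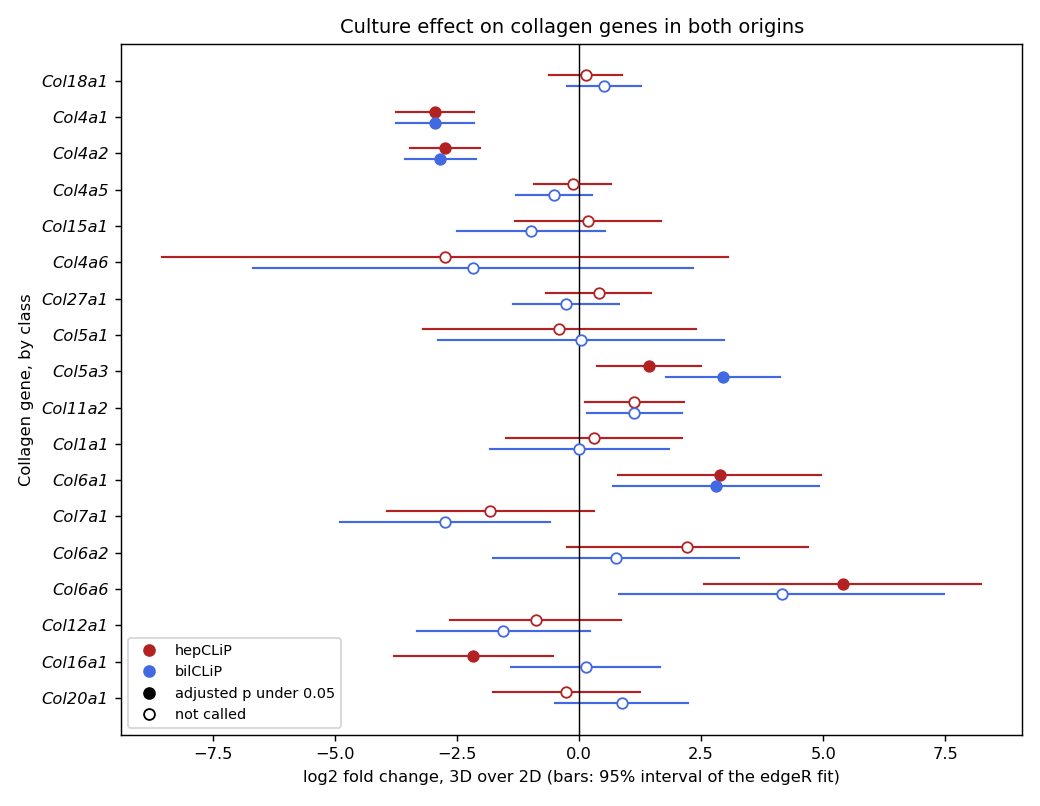
Log2 fold change of 3D over 2D (horizontal axis) for the 18 collagen genes tested (vertical axis, grouped by class), hepCLiP above bilCLiP for each gene. Bars are 95% intervals of the edgeR fit and filled points passed an adjusted p of 0.05. Col4a1 lies at -2.94 in hepCLiP and -2.95 in bilCLiP, and Col6a1 at 2.88 and 2.81.

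Col4a1 and Col4a2 encode the chains that join as 2 alpha 1 and 1 alpha 2 to make the widespread type IV collagen of basement membranes. Both fell in 3D in both origins. In hepCLiP 3D libraries, Col4a1 had 107, 95.1 and 121 CPM, against 589.9, 631 and 1269 CPM in hepCLiP 2D libraries. In bilCLiP 3D libraries it had 222, 157 and 177 CPM, against 1968, 903 and 1431 CPM in bilCLiP 2D libraries. Every 3D library was below every 2D library, and the separation held within each origin and across both. The log2 fold change was -2.94 ± 0.361 (SE) in hepCLiP (adjusted p = 0.000264, edgeR's quasi-likelihood test), a 7.69-fold lower level, and -2.95 ± 0.361 in bilCLiP (adjusted p = 0.000283), a 7.74-fold lower level. In bulk RNA, fewer cells of a type and less RNA per cell cannot be told apart.

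Col4a2 moved by nearly the same amount as its partner. It had 81.8, 81.9 and 84.6 CPM in hepCLiP 3D libraries, against 420.1, 401 and 841 CPM in hepCLiP 2D libraries. For bilCLiP it had 118, 94.4 and 107 CPM in 3D libraries, against 989, 485 and 813 CPM in 2D libraries. The cultures did not overlap in either origin, and the hepCLiP 3D libraries lay within a few CPM of each other. On the log2 scale, the fold change was -2.74 ± 0.328 in hepCLiP (adjusted p = 0.000225, edgeR) and -2.84 ± 0.329 in bilCLiP (adjusted p = 0.000207). Both genes were lower in 3D in 3 of 3 replicate numbers in each origin. With the RosaYFP libraries alone, which leave 1 hepCLiP library per culture, the hepCLiP call of Col4a2 was lost (adjusted p = 0.0534).

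The culture effect on these chains did not differ detectably between the origins. The difference, bilCLiP minus hepCLiP, was -0.01 on the log2 scale for Col4a1 (95% interval -1.06 to 1.04) and -0.10 for Col4a2 (-1.06 to 0.86). Per kilobase of exon, the ratio of Col4a2 to Col4a1 was 0.872 ± 0.0936 in hepCLiP 3D and 0.756 ± 0.0433 in hepCLiP 2D, and 0.653 ± 0.0459 in bilCLiP 3D and 0.604 ± 0.0368 in bilCLiP 2D (SD, n = 3 each). The ratio was below 1 in each group mean.

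**Figure D3:**
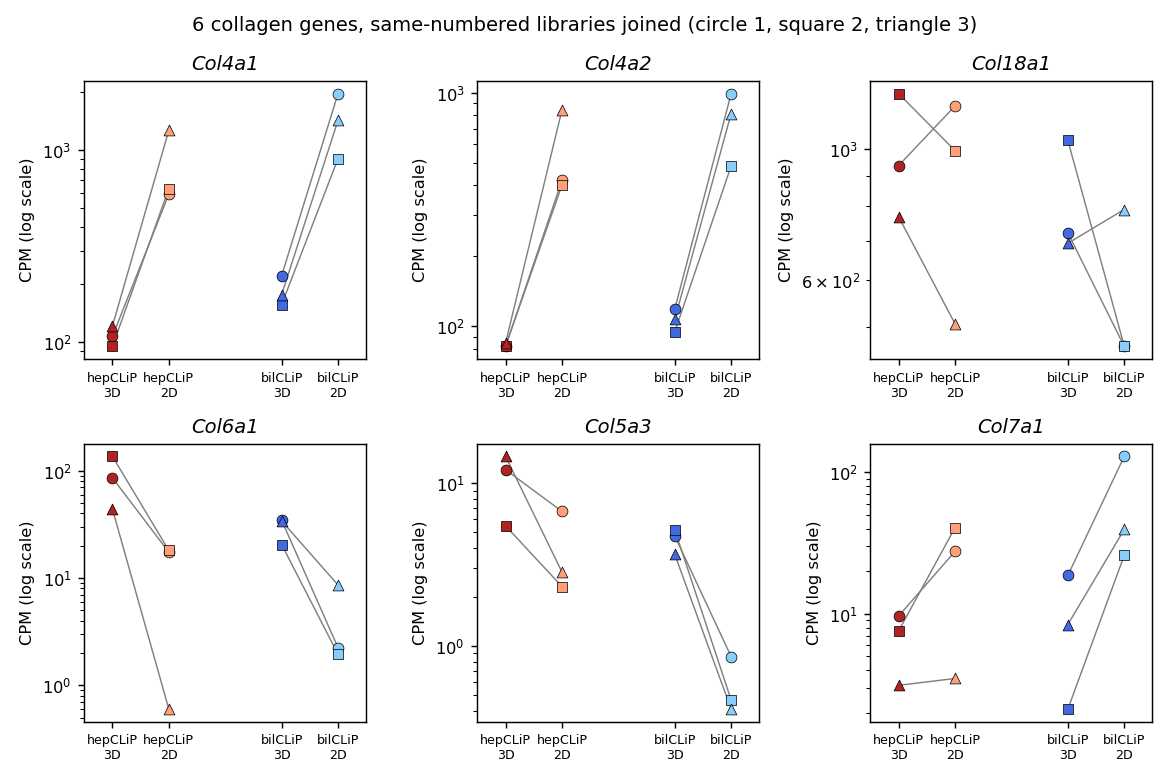
CPM (vertical axes, log scale) of 6 collagen genes in each library, by group on the horizontal axes, with lines joining the 3D and 2D libraries that share a replicate number. Col4a1 and Col4a2 are lower in 3D along all 6 lines, Col6a1 and Col5a3 higher along all 6, and Col18a1 lines run both ways.

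Col4a1 and Col4a2 are known to be transcribed head to head from a shared promoter region. The windows of the 4 members called with culture in both origins are printed here from RefSeq (GRCm38.p6, an older build than the GRCm39 the counts were made on), 250 bases before to 50 after each start, read 5′ to 3′ along the gene's own strand. Capitals mark the CCAAT box (CCAAT or ATTGG) and the GC box (GGGCGG or CCGCCC), searched on both strands, and the capital runs do not overlap.
Col4a1: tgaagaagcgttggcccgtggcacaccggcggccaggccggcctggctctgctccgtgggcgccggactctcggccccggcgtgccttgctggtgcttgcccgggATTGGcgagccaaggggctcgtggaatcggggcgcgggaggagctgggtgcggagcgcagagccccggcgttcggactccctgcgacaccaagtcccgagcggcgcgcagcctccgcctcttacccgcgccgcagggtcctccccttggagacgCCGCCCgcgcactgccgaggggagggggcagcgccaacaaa
Col4a2: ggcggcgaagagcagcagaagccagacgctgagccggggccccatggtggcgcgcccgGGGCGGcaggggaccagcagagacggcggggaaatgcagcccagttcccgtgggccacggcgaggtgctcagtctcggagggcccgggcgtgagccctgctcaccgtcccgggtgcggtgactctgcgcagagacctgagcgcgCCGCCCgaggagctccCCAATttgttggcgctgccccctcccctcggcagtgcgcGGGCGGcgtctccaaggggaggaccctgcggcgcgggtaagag
Col5a3: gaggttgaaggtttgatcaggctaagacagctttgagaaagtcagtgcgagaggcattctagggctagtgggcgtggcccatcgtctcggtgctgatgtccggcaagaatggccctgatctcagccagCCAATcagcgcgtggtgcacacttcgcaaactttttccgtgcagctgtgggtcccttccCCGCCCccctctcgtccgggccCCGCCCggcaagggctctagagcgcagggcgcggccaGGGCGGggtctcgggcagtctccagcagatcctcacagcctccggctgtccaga
Col6a1: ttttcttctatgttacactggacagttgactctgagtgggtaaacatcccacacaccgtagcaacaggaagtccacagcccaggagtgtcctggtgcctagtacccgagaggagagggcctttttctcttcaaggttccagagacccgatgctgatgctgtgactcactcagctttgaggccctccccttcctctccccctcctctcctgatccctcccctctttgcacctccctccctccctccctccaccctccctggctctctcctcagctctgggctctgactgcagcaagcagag

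The Col4a1 window lies at chr8:11312777-11313076 on the minus strand and the Col4a2 window at chr8:11312555-11312854 on the plus strand. They share 78 bases, and the annotated starts lie 21 bases apart on opposite strands, with the first bases of the pair overlapping. Reads from that overlap could not be assigned to a gene without strand, and the strand setting of the counting is not given in the sources used here. The Col5a3 window lies at chr9:20815018-20815317 and the Col6a1 window at chr10:76725995-76726294, both on the minus strand. The type IV windows are rich in G and C (74% for Col4a1 and 73.7% for Col4a2, against 63.3% for Col5a3 and 57.3% for Col6a1). A CCAAT box is in the Col4a1, Col4a2 and Col5a3 windows and in 37.4% of all 32851 RefSeq windows. The GC box occurs 1 time in the Col4a1 window and 3 times each in the Col4a2 and Col5a3 windows, and 35.7% of all windows hold it. The Col4a1 GC box lies in the 78 shared bases and is the same site as the last one in the Col4a2 window. Of the 38 windows found for 35 collagen genes, 13 held the CCAAT box and 23 the GC box. Neither motif is in the Col6a1 window. The TATA box (TATAAA, in 13.6% of all windows), the TEAD motif (GGAATG, 14.7%) and the STAT motif (TTCNNNGAA, 8.30%) were also searched on both strands and are in none of the 4 windows printed.

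Col4a5 encodes a chain of the type IV networks found in particular basement membranes such as that of the kidney glomerulus. It had 44.4, 23.3 and 45.0 CPM in hepCLiP 3D libraries, against 40.0, 27.6 and 55.6 CPM in hepCLiP 2D libraries, and 53.2, 50.7 and 41.7 CPM in bilCLiP 3D libraries, against 103, 43.8 and 60.3 CPM in bilCLiP 2D libraries. The cultures overlapped in both origins, with log2 fold changes of -0.13 (95% interval -0.91 to 0.66, adjusted p = 0.809, edgeR) in hepCLiP and -0.51 (-1.29 to 0.28, adjusted p = 0.311) in bilCLiP. Per kilobase, Col4a1 was 2.76 times Col4a5 in hepCLiP 3D and 18.1 times in hepCLiP 2D, and 3.45 times in bilCLiP 3D and 19.0 times in bilCLiP 2D. Of the other type IV chains, Col4a6, whose chain pairs with alpha 5, was found mainly in hepCLiP replicate 2 and bilCLiP replicate 1. It had 0 to 0.21 CPM in hepCLiP 3D and 0 to 2.00 CPM in hepCLiP 2D, and 0 to 3.16 CPM in bilCLiP 3D and 0 to 14.0 CPM in bilCLiP 2D, and bilCLiP 2D replicate 1 held most of its counts. Its log2 fold change of -2.74 in hepCLiP (95% interval -8.53 to 3.05, adjusted p = 0.450, edgeR) and of -2.17 in bilCLiP (-6.67 to 2.34, adjusted p = 0.461) was not called, with intervals that take in both directions and the size seen for Col4a1 and Col4a2. With the replicate block it was called in bilCLiP (log2 fold change -2.14, adjusted p = 0.0498). Col4a3 and Col4a4 had at most 8 counts in any library and were not tested.

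Col18a1, whose protein sits in basement membranes and carries the endostatin fragment, had the highest level of all collagens in 3D. It had 938, 1241 and 768 CPM in hepCLiP 3D libraries, against 1183, 994 and 506 CPM in hepCLiP 2D libraries. In bilCLiP 3D libraries it had 722, 1035 and 693 CPM, against 464, 464 and 790.1 CPM in bilCLiP 2D libraries. The cultures overlapped in both origins and the gene was not called, with a log2 fold change of 0.14 (95% interval -0.61 to 0.89, adjusted p = 0.789, edgeR) in hepCLiP and 0.51 (-0.24 to 1.26, adjusted p = 0.287) in bilCLiP. The intervals leave room for a change of up to 1.26 on the log2 scale, and the counts do not separate transcripts from different starts of this gene.

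On the scale of CPM per kilobase, the order of the collagens therefore differed between cultures. Col18a1 led in hepCLiP 3D at 139.9 ± 34.1, followed by Col6a1 at 20.3 ± 10.6, Col4a1 at 14.5 ± 1.77 and Col4a2 at 12.5 ± 0.235 (SD, n = 3 each). The ranges of the last 3 overlapped, though Col4a2 was below Col4a1 within each hepCLiP 3D library (ratio 0.785 to 0.971). In hepCLiP 2D, Col18a1 stood at 127 ± 49.8, Col4a1 at 111 ± 51.0 and Col4a2 at 83.8 ± 37.6. Within the hepCLiP 2D libraries, Col4a2 was below Col4a1 each time (ratio 0.718 to 0.803). The ratio of Col18a1 to Col4a1 there ran from 0.424 to 2.13, on both sides of 1. Col18a1 also led in bilCLiP 3D at 116 ± 27.0, with Col4a1 at 24.8 ± 4.47 and Col4a2 at 16.1 ± 1.80. In bilCLiP 2D, Col4a1 led at 192 ± 71.3, ahead of Col4a2 at 115 ± 38.7 and Col18a1 at 81.5 ± 26.8. Col4a1 was above both in each bilCLiP 2D library (ratio to Col4a1 of 0.567 to 0.640 for Col4a2 and 0.250 to 0.587 for Col18a1). The ratio of Col18a1 to Col4a1 per kilobase was 9.96 in hepCLiP 3D and 1.41 in hepCLiP 2D, and 4.88 in bilCLiP 3D and 0.461 in bilCLiP 2D. Col15a1, the close relative of Col18a1, was low, at 7.18, 5.25 and 6.53 CPM in hepCLiP 3D against 5.18, 9.59 and 1.90 CPM in hepCLiP 2D, and 3.36, 1.78 and 6.03 CPM in bilCLiP 3D against 2.02, 9.79 and 10.3 CPM in bilCLiP 2D. Its cultures overlapped and it was not called.

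**Figure D4:**
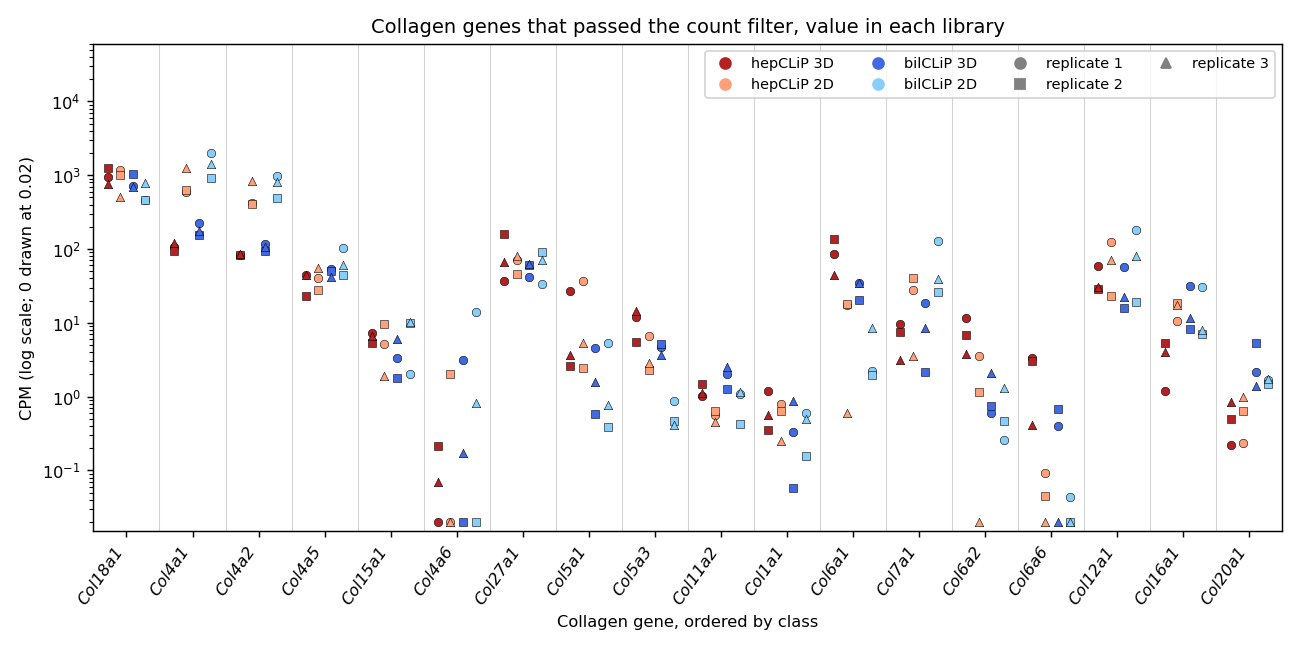
CPM (vertical axis, log scale, 0 drawn at 0.02) of the 18 collagen genes tested (horizontal axis, by class) in each of the 12 libraries, coloured by group and shaped by replicate number. The Col4a1 and Col4a2 columns separate by culture, and in the Col5a1 column the replicate 1 libraries stand highest in each group.

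Among the fibrillar collagens, Col5a3 was the member called with culture. Type V collagen sits inside fibrils and helps to start them, and Col5a3 encodes its less common alpha 3 chain. It had 4.74, 5.17 and 3.65 CPM in bilCLiP 3D libraries, against 0.861, 0.466 and 0.410 CPM in bilCLiP 2D libraries, and each 3D library lay above each 2D library. In hepCLiP it had 12.1, 5.46 and 14.6 CPM in 3D libraries, against 6.71, 2.32 and 2.85 CPM in 2D libraries, and there the groups overlapped through 3D replicate 2. The log2 fold change was 2.95 ± 0.531 in bilCLiP (adjusted p = 0.00224, edgeR), a 7.73-fold higher level that held in all 20 alternatives run, and 1.43 ± 0.485 in hepCLiP (adjusted p = 0.0405), a 2.704-fold higher level. The hepCLiP call was lost when hepCLiP 3D replicate 1 or 3, hepCLiP 2D replicate 2 or 3, bilCLiP 3D replicate 2 or 3, or bilCLiP 2D replicate 2 was left out (adjusted p = 0.0508 to 0.129). With the replicate block the hepCLiP call held (adjusted p = 0.00971, edgeR). The difference between the origins was 1.52 on the log2 scale (95% interval -0.02 to 3.05, adjusted p = 1.00).

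The abundant fibrillar chains of scar tissue were close to absent. Col1a1, a chain of type I collagen, had 1 to 17 counts and 0.06 to 1.17 CPM across the 12 libraries. Its partner Col1a2 had at most 1 count in any library, Col3a1 at most 8 and Col5a2 at most 3. At 2 counts in all, Col6a3, the partner of Col6a1 in the common form of type VI collagen, was as low. Col5a1, the main alpha 1 chain of type V collagen, had 27.3, 2.62 and 3.61 CPM in hepCLiP 3D libraries, against 36.4, 2.41 and 5.35 CPM in hepCLiP 2D libraries. In bilCLiP it had 4.54, 0.574 and 1.57 CPM in 3D libraries, against 5.34, 0.389 and 0.774 CPM in 2D libraries. Its level went with the replicate number, replicate 1 being highest in all 4 groups, and it was not called with culture. Col27a1, a fibrillar collagen known from cartilage, had 36.6, 157 and 67.3 CPM in hepCLiP 3D against 72.0, 46.4 and 79.4 CPM in hepCLiP 2D, and 42.1, 60.0 and 62.3 CPM in bilCLiP 3D against 33.9, 91.8 and 72.0 CPM in bilCLiP 2D. It overlapped between cultures and was not called. Col11a2, a chain of type XI collagen, had 1.03 to 1.49 CPM in hepCLiP 3D against 0.45 to 0.64 CPM in hepCLiP 2D, and 1.26 to 2.49 CPM in bilCLiP 3D against 0.43 to 1.14 CPM in bilCLiP 2D. The ranges did not overlap in either origin (as for 46.9% of all genes tested in hepCLiP and 49.1% in bilCLiP), yet its adjusted p was 0.0772 in hepCLiP and 0.0757 in bilCLiP (edgeR), and with the replicate block 0.0295 and 0.0204.

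Col6a1 encodes the alpha 1 chain of type VI collagen, the beaded filament that links basement membranes to the surrounding matrix. It had 85.9, 136 and 43.9 CPM in hepCLiP 3D libraries, against 17.4, 18.1 and 0.599 CPM in hepCLiP 2D libraries. In bilCLiP it had 34.6, 20.6 and 34.1 CPM in 3D libraries, against 2.24, 1.94 and 8.61 CPM in 2D libraries. No 3D library of an origin overlapped its 2D libraries, and hepCLiP 2D replicate 3 stood far below the other hepCLiP 2D libraries. This gave a log2 fold change of 2.88 ± 0.938 in hepCLiP (adjusted p = 0.0354, edgeR), a 7.36-fold higher level, and 2.81 ± 0.952 in bilCLiP (adjusted p = 0.0462), a 7.002-fold higher level. With the replicate block the adjusted p was 0.00797 in hepCLiP and 0.0137 in bilCLiP. Both calls were close to the threshold. The hepCLiP call was lost without hepCLiP 3D replicate 1 or 2, hepCLiP 2D replicate 1 or 2, or bilCLiP 3D replicate 3 (adjusted p = 0.0509 to 0.101). The bilCLiP call was lost without any 1 library of hepCLiP 3D or bilCLiP 3D, or without replicate 1 or 2 of hepCLiP 2D or bilCLiP 2D (adjusted p = 0.0533 to 0.135).

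The other type VI chains were much lower. Col6a2 had 11.4, 6.74 and 3.82 CPM in hepCLiP 3D libraries, against 3.56, 1.14 and 0 CPM in hepCLiP 2D libraries, and 0.593, 0.746 and 2.09 CPM in bilCLiP 3D libraries, against 0.258, 0.466 and 1.32 CPM in bilCLiP 2D libraries. The hepCLiP cultures did not overlap, and the log2 fold change of 2.22 there missed the threshold (adjusted p = 0.149, edgeR) but passed it with the replicate block (2.80, adjusted p = 0.01501). Per kilobase, Col6a2 was 0.0472 of Col6a1 in hepCLiP 3D and 0.0468 in hepCLiP 2D, and 0.0201 in bilCLiP 3D and 0.0892 in bilCLiP 2D. Col6a6, an alternative long chain of type VI collagen, had 45, 43 and 6 counts in hepCLiP 3D libraries, against 2, 1 and 0 counts in hepCLiP 2D libraries. It passed the filter only through 3D libraries, where it is high, so its ratios and calls are not separate from that selection. The ratio after scaling by library was 47.3 (exact 95% interval 15.7 to 234, counting error only), and the call had an adjusted p of 0.00823 (edgeR). It was lost with the RosaYFP libraries alone (adjusted p = 0.171). In bilCLiP, Col6a6 had 18 counts over the 3D libraries and 1 over the 2D libraries, a ratio of 25.6 (4.04 to 1067), and missed the threshold (adjusted p = 0.0595). It passed it by DESeq2 (adjusted p = 0.0263). By edgeR it passed with the replicate block (adjusted p = 0.0140), without hepCLiP 3D replicate 3 (0.0453) and without bilCLiP 3D replicate 3 (0.0249).

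Col7a1, the chain of the anchoring fibrils that tie an epithelium's basement membrane to the matrix below, had 18.7, 2.12 and 8.41 CPM in bilCLiP 3D libraries, against 129.8, 25.9 and 39.5 CPM in bilCLiP 2D libraries. In hepCLiP it had 9.67, 7.59 and 3.13 CPM in 3D libraries, against 27.7, 40.7 and 3.50 CPM in 2D libraries. The bilCLiP cultures did not overlap, the hepCLiP cultures did, and the 3D library was the lower one in 3 of 3 replicate numbers in each origin. The log2 fold change was -2.74 in bilCLiP (adjusted p = 0.0556, edgeR) and -1.82 in hepCLiP (adjusted p = 0.166), neither called. With the replicate block both passed, at -2.83 in bilCLiP (adjusted p = 0.00259) and -1.48 in hepCLiP (adjusted p = 0.0296). The bilCLiP value also passed by DESeq2 (adjusted p = 0.00617). By edgeR it passed without hepCLiP 2D replicate 3 (adjusted p = 0.0300) and without bilCLiP 3D replicate 1 (0.0460).

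Of the FACIT collagens, Col16a1 was called in hepCLiP. Type XVI collagen is found near basement membranes and fibrils. It had 1.17, 5.32 and 3.96 CPM in hepCLiP 3D libraries, against 10.7, 18.7 and 17.4 CPM in hepCLiP 2D libraries, without overlap. In bilCLiP it had 31.0, 8.15 and 11.5 CPM in 3D libraries, against 31.0, 7.07 and 7.93 CPM in 2D libraries, and the cultures overlapped. Its log2 fold change was -2.16 ± 0.735 in hepCLiP (adjusted p = 0.0420, edgeR) and 0.14 ± 0.690 in bilCLiP (adjusted p = 0.904). The difference between the origins, 2.30 ± 1.00, had an unadjusted p of 0.0430 and an adjusted p of 1.00. Leaving out any 1 hepCLiP library, or bilCLiP 3D replicate 3, ended the hepCLiP call (adjusted p = 0.0514 to 0.133). With the replicate block the hepCLiP call held (log2 fold change -2.30, adjusted p = 0.000574, edgeR).

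Col12a1, a FACIT collagen found where tissue is under tension, had 58.3, 28.7 and 30.6 CPM in hepCLiP 3D against 125, 22.9 and 69.9 CPM in hepCLiP 2D, and 57.8, 15.7 and 22.3 CPM in bilCLiP 3D against 179.7, 19.1 and 81.0 CPM in bilCLiP 2D. Replicate 1 was the highest and replicate 2 the lowest in all 4 groups, and the cultures overlapped. It was not called, but with the replicate block it passed in bilCLiP (log2 fold change -1.28, adjusted p = 0.0395). Col20a1 ran from 0.22 to 0.83 CPM in hepCLiP 3D and from 0.23 to 1.00 CPM in hepCLiP 2D, and from 1.39 to 5.40 CPM in bilCLiP 3D and from 1.48 to 1.73 CPM in bilCLiP 2D.

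The 26 collagen genes not tested included all 4 transmembrane members (Col13a1, Col17a1, Col23a1 and Col25a1). Col13a1 had 0 counts in all 12 libraries, which allows a level of up to 0.0132 CPM over them. Col17a1, a chain of epithelial hemidesmosomes, had at most 2 counts in any library. Col8a1, Col9a3 and Col14a1 reached 12 or 13 counts. Col11a1 reached 73 counts in bilCLiP 2D replicate 1.

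Between the origins, no collagen gene was called. In 3D, bilCLiP against hepCLiP, 0 of 18 passed edgeR's test (0.101% of all genes tested did), while 6 had an unadjusted p under 0.05 (16.6% of all genes tested did) and DESeq2 called 2, Col20a1 (adjusted p = 0.0192) and Col16a1 (adjusted p = 0.0340). In 2D, 0 of 18 passed (0.135% of all genes tested did), 2 had an unadjusted p under 0.05 (14.5% of all genes tested did) and DESeq2 called 1, Col5a3 (adjusted p = 0.000115). By DESeq2, 4.20% of all genes tested were called in 3D and 3.69% in 2D. With the replicate number as a block, Col5a1 was called in both (0.297% of all genes tested in 3D and 0.419% in 2D), though the numbers do not pair the origins. The values of 7 collagen genes did not overlap between the origins in 3D, among 21.8% of all genes tested, with Col4a1, Col4a2, Col16a1 and Col20a1 on the higher side in bilCLiP and Col5a3, Col6a1 and Col6a2 on the lower side. In 2D, 2 collagen genes did not overlap, among 21.0% of all genes tested. Col4a1 was 0.78 higher on the log2 scale in bilCLiP in 3D (95% interval 0.03 to 1.53, adjusted p = 0.286) and 0.79 higher in 2D (0.04 to 1.53, adjusted p = 0.322). Col5a3 was lower in bilCLiP by a log2 fold change of -2.76 in 2D (adjusted p = 0.0893) and -1.24 in 3D (adjusted p = 0.250). For the difference of the culture effects, 0 of the 18 collagen genes and 0 of all genes tested passed (0.00%), with 1 collagen gene at an unadjusted p under 0.05 (3.60% of all genes tested were), and DESeq2 called 7 genes (0.0473%), none a collagen.

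Of 20 listed genes that fold, modify and export collagen, 18 were tested. In hepCLiP, 5 rose in 3D (Mia3, Ppib, Plod2, P4hb and Mia2) and 2 fell (P3h2 and Colgalt2), with a median log2 fold change of 0.29 over the list against -0.06 over all genes. In bilCLiP, 3 rose (Mia3, Ppib and P4hb) and P3h2 fell, with a median of -0.00 for the list and for all genes. The genes called were 7 of 18 in hepCLiP, where 34.7% of all genes were called, and 4 of 18 in bilCLiP, where 30.3% were. On 18 genes these shares are no result about the list. Mia3, which loads bulky procollagen into export carriers, had 291, 275 and 227 CPM in hepCLiP 3D against 102, 94.7 and 104 CPM in hepCLiP 2D, and 165, 249 and 185 CPM in bilCLiP 3D against 86.0, 114 and 99.6 CPM in bilCLiP 2D. Its log2 fold change was 1.40 ± 0.177 in hepCLiP (adjusted p = 0.000301, edgeR) and 1.00 ± 0.175 in bilCLiP (adjusted p = 0.00197), and 3D was above 2D in every library. P4hb, the beta subunit shared by the collagen prolyl hydroxylases and a disulfide isomerase of wider use, rose by a log2 fold change of 1.02 ± 0.195 in hepCLiP (adjusted p = 0.00262) and 0.96 ± 0.195 in bilCLiP (adjusted p = 0.00439). P3h2, a prolyl 3-hydroxylase, had 4.76, 6.81 and 2.02 CPM in hepCLiP 3D against 17.5, 12.8 and 10.3 CPM in hepCLiP 2D, and 2.83, 2.81 and 2.61 CPM in bilCLiP 3D against 15.8, 11.1 and 8.43 CPM in bilCLiP 2D, without overlap. Its log2 fold change was -1.58 in hepCLiP (adjusted p = 0.0116) and -2.10 in bilCLiP (adjusted p = 0.00357). Plod2, a lysyl hydroxylase, rose in hepCLiP (log2 fold change 1.53, adjusted p = 0.0285), a call lost without hepCLiP 3D replicate 1 or hepCLiP 2D replicate 1 or 3 (adjusted p = 0.0805 to 0.0889), and in bilCLiP its value was -0.24 (adjusted p = 0.732). In bilCLiP the rise of Ppib, a prolyl isomerase of the endoplasmic reticulum (0.75, adjusted p = 0.0362), was lost without bilCLiP 3D replicate 1 or 2 or bilCLiP 2D replicate 2 or 3 (adjusted p = 0.0783 to 0.123).

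Of 14 genes for processing and crosslinking, 10 were tested and 2 fell in each origin, Loxl2 and Loxl4, both lysyl oxidase family enzymes, with none called higher. That count is close to the 17.9% of all genes called lower in hepCLiP and 14.5% in bilCLiP. The median log2 fold change of the list was -2.09 in hepCLiP and -1.76 in bilCLiP. Loxl2, which is known to act on type IV collagen, had 5.64, 16.2 and 13.3 CPM in hepCLiP 3D against 154, 195 and 208 CPM in hepCLiP 2D, and 12.05, 8.78 and 13.2 CPM in bilCLiP 3D against 185, 97.9 and 181 CPM in bilCLiP 2D. Its cultures were far apart, with log2 fold changes of -3.99 ± 0.394 (adjusted p = 0.000107, edgeR) and -3.77 ± 0.390 (adjusted p = 0.000128). Loxl4 fell by a log2 fold change of -1.83 in hepCLiP (adjusted p = 0.0292) and -2.57 in bilCLiP (adjusted p = 0.00829), and the hepCLiP call was lost without hepCLiP 3D replicate 2 or 3 or hepCLiP 2D replicate 2 (adjusted p = 0.0824 to 0.116).

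For collagen breakdown, 8 of 14 listed genes were tested. In each origin Timp1 rose and Timp2 fell, both inhibitors of the matrix metalloproteinases, and in bilCLiP the collagenase Mmp13 also fell. Genes called were 2 of 8 in hepCLiP, where 34.7% of all genes were called, and 3 of 8 in bilCLiP, where 30.3% were. Timp1 had 178, 69.2 and 141 CPM in hepCLiP 3D against 15.3, 17.5 and 15.99 CPM in hepCLiP 2D, and 149, 115 and 208 CPM in bilCLiP 3D against 15.1, 26.1 and 18.3 CPM in bilCLiP 2D. Every 3D library was above every 2D library, with a log2 fold change of 2.99 ± 0.356 in hepCLiP (adjusted p = 0.000227, edgeR) and 2.99 ± 0.355 in bilCLiP (adjusted p = 0.000245). Timp2 fell by a log2 fold change of -1.20 in hepCLiP (adjusted p = 0.00549) and -1.11 in bilCLiP (adjusted p = 0.00950). Mmp13 was low, at 0.23 to 0.75 CPM in bilCLiP 3D against 1.03 to 25.5 CPM in bilCLiP 2D (log2 fold change -4.72, adjusted p = 0.0186), and this call was lost without bilCLiP 3D replicate 1 or 3 or bilCLiP 2D replicate 2 (adjusted p = 0.0615 to 0.0697). Mmp13 passed the filter on low counts only with its 2D libraries, where it is high. In hepCLiP its log2 fold change of -3.20 missed the threshold (adjusted p = 0.0655).

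Of 9 listed collagen receptor genes, 5 were tested, and Itga2 and Itgb1, the subunits of the integrin alpha 2 beta 1 that binds collagen, fell in both origins, where 17.9% of all genes were called lower in hepCLiP and 14.5% in bilCLiP. The 3 others were not called, with log2 fold changes of 0.44 (Itga1), -0.22 (Itga10) and -0.07 (Ddr1) in hepCLiP and 0.67, 0.82 and -0.12 in bilCLiP. Itga2 had 2.20, 2.62 and 8.27 CPM in hepCLiP 3D against 46.8, 109.6 and 93.4 CPM in hepCLiP 2D, and 3.03, 2.47 and 6.96 CPM in bilCLiP 3D against 68.6, 85.2 and 64.5 CPM in bilCLiP 2D. Fitted log2 fold changes were -4.25 ± 0.579 in hepCLiP (adjusted p = 0.000465, edgeR) and -4.13 ± 0.575 in bilCLiP (adjusted p = 0.000599), with no overlap. Itgb1, the subunit shared by many integrins, fell by a log2 fold change of -0.73 in hepCLiP (adjusted p = 0.0338) and -0.94 in bilCLiP (adjusted p = 0.0130). The hepCLiP call of Itgb1 was lost without any 1 library of hepCLiP 3D, hepCLiP 2D replicate 1 or 3, or bilCLiP 3D replicate 1 (adjusted p = 0.0552 to 0.119), and the bilCLiP call without bilCLiP 3D replicate 2 (adjusted p = 0.0549).

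Among 14 matrix genes whose proteins bind collagen, 10 were tested. In hepCLiP, Fn1 and Dcn rose and Hspg2, Sparc, Nid1, Nid2 and Fbln1 fell, which is 7 of 10 called where 34.7% of all genes were. Of these, Fbln1 passed the filter on low counts only with its 2D libraries, where it is high. In bilCLiP Hspg2, Sparc, Nid1, Nid2 and Fbln2 fell, 5 of 10 called where 30.3% of all genes were. Fn1 and Dcn missed the threshold in bilCLiP, with log2 fold changes of 1.23 (adjusted p = 0.0608, edgeR) and 4.81 (adjusted p = 0.0849) and no overlap between the cultures. The median log2 fold change of the list was -1.76 in each origin. Hspg2 encodes perlecan, the heparan sulfate proteoglycan of basement membranes. It had 36.8, 12.7 and 9.17 CPM in hepCLiP 3D against 228, 154 and 289 CPM in hepCLiP 2D, and 13.0, 10.2 and 16.8 CPM in bilCLiP 3D against 339, 195 and 331 CPM in bilCLiP 2D. Its log2 fold change was -3.52 ± 0.508 in hepCLiP (adjusted p = 0.000622, edgeR) and -4.43 ± 0.530 in bilCLiP (adjusted p = 0.000258), without overlap. Nid1, nidogen 1, which links the laminin and type IV networks, fell by -1.67 in hepCLiP (adjusted p = 0.0181) and -2.29 in bilCLiP (adjusted p = 0.00502) on the log2 scale. The hepCLiP call of Nid1 was lost without hepCLiP 3D replicate 2 or 3 or hepCLiP 2D replicate 3 (adjusted p = 0.0646 to 0.0720). Nid2, its relative, fell in bilCLiP by -1.30 (adjusted p = 0.0339), a call lost without bilCLiP 3D replicate 2 or 3 or bilCLiP 2D replicate 3 (adjusted p = 0.103 to 0.117).

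Sparc, a collagen-binding protein with a role in basement membrane assembly, differed with both culture and origin. It had 102, 58.1 and 78.8 CPM in bilCLiP 3D libraries, against 1.03, 1.70 and 0.417 CPM in hepCLiP 3D libraries. In 2D it had 459.9, 296 and 354 CPM in bilCLiP libraries, against 27.5, 22.5 and 16.04 CPM in hepCLiP libraries. The 4 groups did not overlap. Between origins the log2 fold change was 6.24 ± 0.448 in 3D (adjusted p = 0.000250, edgeR) and 4.07 ± 0.378 in 2D (adjusted p = 0.00222), the 1 gene of these 5 lists called between origins. With culture it was -4.39 ± 0.425 in hepCLiP (adjusted p = 9.75e-05) and -2.21 ± 0.348 in bilCLiP (adjusted p = 0.00113). With the RosaYFP libraries alone the 2D call between origins was lost (adjusted p = 0.145).

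**Figure D5:**
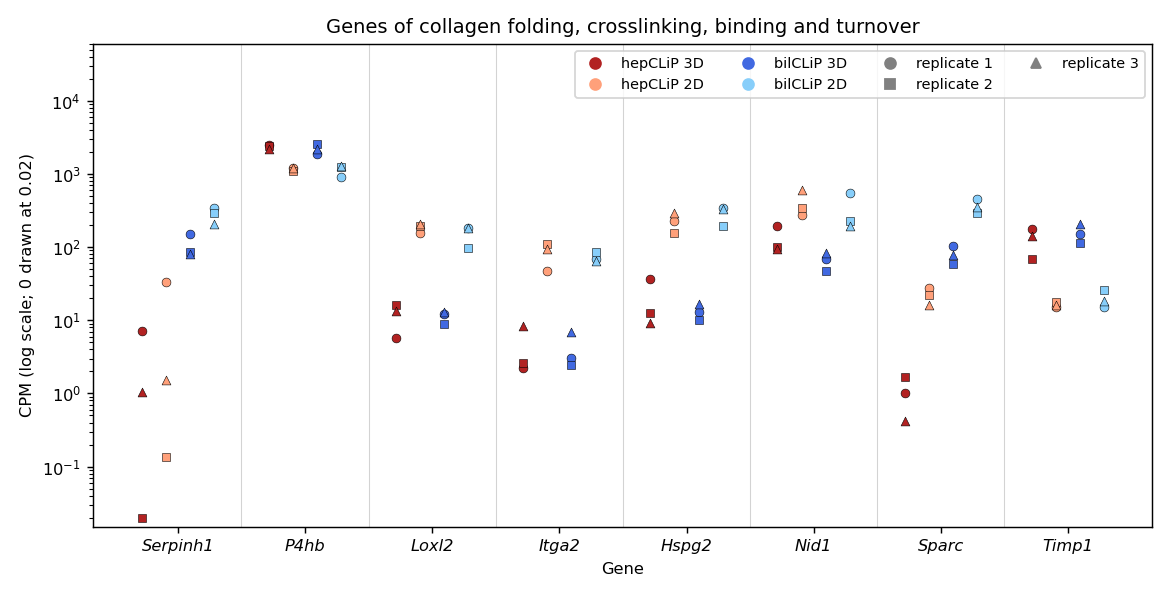
CPM (vertical axis, log scale, 0 drawn at 0.02) of 8 genes that fold, crosslink, bind or turn over collagen (horizontal axis) in each of the 12 libraries, coloured by group and shaped by replicate number. Loxl2, Itga2 and Hspg2 are lower and Timp1 higher in every 3D library than in every 2D library, and Sparc also separates by origin.

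Markers of other liver cell types were measured beside these values, and their part in the collagen results was not tested. Of 12 fibroblast and stellate cell markers, Dcn, Reln and Rgs5 had a group mean of at least 1 CPM in both 3D groups and in hepCLiP 2D. In bilCLiP 2D, Reln and Rgs5 did. The 12 markers summed to 6.88 to 300.1 CPM in hepCLiP 3D against 0.818 to 10.7 CPM in hepCLiP 2D, and 27.4 to 50.1 CPM in bilCLiP 3D against 3.50 to 7.11 CPM in bilCLiP 2D. Without Dcn the sum was 4.19 to 18.6 CPM in hepCLiP 3D against 0.727 to 8.51 CPM in hepCLiP 2D. For bilCLiP it was then 18.3 to 43.7 CPM in 3D against 3.50 to 5.97 CPM in 2D. Hand2 was at 0 in all 4 groups, Acta2 at 0 in hepCLiP 3D, and Des and Thy1 at 0 in both bilCLiP groups. Dcn, decorin, is on this list and on that of the matrix genes, and rested on 1 library, with 282, 4.68 and 2.64 CPM in hepCLiP 3D against 2.22, 0.0909 and 1.85 CPM in hepCLiP 2D. Its hepCLiP call (adjusted p = 0.0276, edgeR) did not hold once hepCLiP 3D replicate 1 was left out (adjusted p = 0.466) and without any 1 library of hepCLiP 2D (adjusted p = 0.0652 to 0.0791). Of 6 mesothelial markers, Msln was the high one, and the list summed to 5.93 to 26.1 CPM in hepCLiP 3D against 334 to 989 CPM in hepCLiP 2D, and 13.0 to 28.1 CPM in bilCLiP 3D against 547 to 874 CPM in bilCLiP 2D, with Upk3b and Lrrn4 at 0 in both 3D groups. The 7 endothelial markers summed to at most 0.556 CPM in hepCLiP 3D against 2.05 CPM in hepCLiP 2D, and 1.15 CPM in bilCLiP 3D against 3.70 CPM in bilCLiP 2D. The 6 macrophage and leukocyte markers summed to 6.39 to 19.5 CPM in hepCLiP 3D against 5.69 to 10.9 CPM in hepCLiP 2D, and 5.01 to 19.2 CPM in bilCLiP 3D against 4.13 to 10.1 CPM in bilCLiP 2D. Of these, only Csf1r and Cd68 had a group mean of at least 1 CPM, in all 4 groups, while Ptprc, Adgre1, Clec4f and Vsig4 stayed below it.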

How the data were processed

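Bulk RNA-seq of 12 libraries was analysed from 2 tables. The authors deposited raw gene counts, made with STAR 2.7.10b and featureCounts 2.0.1 on GRCm39, per the submitters' processing notes, which also name DESeq2 without a version. Which annotation, counting options and strand setting were used is not given in the sources, so a gene cannot be told from one that overlaps it or runs antisense to it. The authors also deposited normalized values (a signal per gene in which each library's counts are divided by a constant), used here for an alternative alone.

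In R 4.3.3, filterByExpr of edgeR 4.0.16 kept 14798 genes, and libraries were scaled by TMM. CPM values are the cpm function's counts scaled by the TMM effective library size. Robust glmQLFit and glmQLFTest with 4 group means over all 12 libraries gave 5 contrasts, and every adjusted p is from edgeR (Benjamini-Hochberg over all genes tested, called under 0.05) unless another tool is named. Standard errors come from the fold change and the F statistic. Levels per kilobase used the union of exons of GENCODE vM21, of the older GRCm38 build. Count ratios have exact 95% intervals, and these and limits for 0 counts (3 counts) cover counting error only.

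Same-numbered 3D and 2D libraries of 1 origin deviated together from their group means (correlations 0.497 to 0.508 in hepCLiP and 0.429 to 0.523 in bilCLiP). Other numbers gave -0.370 to -0.033, but deviations cancel within a group, so these values are not separate evidence. By the same-numbered values, the numbers were taken to pair the cultures within an origin, by the data and not the labels. For collagen genes, the blocked value is given where it changes a call, and for the calls of Col6a1 and the hepCLiP calls of Col5a3 and Col16a1.

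Values per library are given for collagen genes with a group mean of at least 5 CPM, or called at 2-fold or more with a mean of at least 1 CPM, and for up to 4 called genes per other list and contrast. Serpinh1 and Pxdn, and the non-member genes mentioned by name only, lie outside this rule. The members, lists and tests were chosen with earlier results of these data known. The alternatives were RLE size factors, DESeq2 1.42.0, no filter, 1 CPM in 3 libraries, the replicate block, limma 3.58.1 on log2(value + 1) of the normalized table, RosaYFP libraries alone, the 2 groups compared alone, and leaving out each library.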

Additional observations from a re-analysis of the deposited data

How the results depend on the processing

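Across the alternatives, the numbers of collagen genes called with culture were small and moved. In hepCLiP, 6 were called, against 3 to 6 when 1 library was left out (3 without hepCLiP 3D replicate 1, hepCLiP 2D replicate 2 or bilCLiP 3D replicate 3), 9 with the replicate block, 4 with no filter, 3 with the 2 groups alone and 1 with the RosaYFP libraries alone. In bilCLiP, 4 were called, against 3 to 5 when 1 library was left out, 9 with the replicate block, 6 by DESeq2, and 3 each with no filter and by limma. Over all genes, 5139 were called in hepCLiP, against 4133 to 5227 when 1 library was left out, 6973 with the replicate block, 4279 with no filter, 4201 with the 2 groups alone and 769 with the RosaYFP libraries alone, which leave 1 hepCLiP library per culture and take its spread from bilCLiP. In bilCLiP, 4485 genes were called, against 3088 to 4555 when 1 library was left out, 6383 with the replicate block, 5302 by DESeq2, 3690 with no filter and 4625 by limma. Between origins in 2D, 20 genes were called, against 6 to 31 when 1 library was left out, 546 by DESeq2, 62 with the replicate block, 38 by limma, 5 with the RosaYFP libraries alone and 5 with the 2 groups alone. Between origins in 3D, 15 were called, against 3 to 251, then 622 by DESeq2, 44 with the replicate block, 26 by limma and 3 with the 2 groups alone. The 251 came without hepCLiP 3D replicate 3, and the 3 without hepCLiP 3D replicate 1. Collagen genes called between origins were 0, against 1 in 2D and 2 in 3D by DESeq2, and 1 in each (Col5a1) with the replicate block, whose numbers do not pair the origins (correlations 0.054 to 0.126). For the difference of the culture effects, 0 genes were called, against 0 to 3 when 1 library was left out and 7 by DESeq2. The cause of these shifts was not tested, save that the smaller fits hold fewer libraries.

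Col4a1 with culture held in all 20 alternatives in both origins, with adjusted p of at most 0.0498. Values whose sign turned were near 0 or, for Col4a6, rested mostly on bilCLiP 2D replicate 1. The difference of the culture effects on Col4a1 ran from -0.45 to 0.29 when 1 library was left out, turning positive in 6 cases, and that on Col4a2 from -0.53 to 0.14, turning positive in 3. Col4a6 in bilCLiP ran from -5.72 to 1.43, the positive value without bilCLiP 2D replicate 1. With the RosaYFP libraries alone, the hepCLiP calls of Mia3 (adjusted p = 0.0578), P4hb (0.149), P3h2 (0.287), Timp1 (0.0737), Timp2 (0.337), Plod2 (0.624), Loxl4 (0.0939), Itgb1 (0.300), Nid1 (0.215), Dcn (0.282), Col5a3 (0.283), Col6a1 (0.149) and Col16a1 (0.452) and the bilCLiP call of Ppib (0.0565) were lost. Without a filter the hepCLiP calls of Col6a1 (0.133), Col16a1 (0.123), Plod2 (0.0879), Loxl4 (0.0883), Nid1 (0.0505) and Dcn (0.110) and the bilCLiP calls of Col6a1 (0.163) and Mmp13 (0.0612) were lost. With the 2 groups alone the hepCLiP calls of Col5a3 (0.0812), Col6a1 (0.0688), Itgb1 (0.0644) and Dcn (0.0620) and the bilCLiP call of Ppib (0.0553) were lost. Col6a6 was under the filter there and with 1 CPM in 3 libraries. By limma the bilCLiP call of Col6a1 (0.0567) and the hepCLiP call of Dcn (0.0935) were lost. Apart from the values printed, the replicate block changed no call of a collagen gene with culture. It also kept the culture calls of the list genes whose values are given. For list genes that were not called, no blocked value is given. Few counts limit Col6a6, the 26 genes not tested, and Col4a6 outside bilCLiP 2D replicate 1.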

Other observations

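Serpinh1, which encodes HSP47, the collagen-specific chaperone of the endoplasmic reticulum, and Pxdn, peroxidasin, which crosslinks type IV collagen, were chosen after their values were seen. Serpinh1 had 149.8, 85.9 and 81.0 CPM in bilCLiP 3D libraries, against 7.03, 0 and 1.04 CPM in hepCLiP 3D libraries. In 2D it had 340.3, 298 and 208 CPM in bilCLiP libraries, against 33.8, 0.136 and 1.55 CPM in hepCLiP libraries. The origins did not overlap in 3D, as for 21.8% of all genes tested, nor in 2D. The log2 fold change between origins was 5.30 ± 1.58 in 3D (adjusted p = 0.183, edgeR) and 4.57 ± 1.48 in 2D (adjusted p = 0.229), so neither was called. Pxdn had 52.5, 21.3 and 18.0 CPM in bilCLiP 3D against 12.7, 0.0709 and 0.556 CPM in hepCLiP 3D, and 193, 97.1 and 71.1 CPM in bilCLiP 2D against 66.2, 0 and 1.65 CPM in hepCLiP 2D. Its adjusted p between origins was 0.434 in 3D and 0.526 in 2D. In hepCLiP both genes were highest in replicate 1 and at or near 0 in replicate 2, in each culture.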
